A study of Mus musculus with 9 samples.

Results

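The genes described here make hemoglobin, break down its heme and store or export the iron that is set free. They are the hemoglobin chain genes Hba-a1, Hba-a2, Hbb-bs and Hbb-bt, the heme synthesis gene Alas2, the heme oxygenase genes Hmox1 and Hmox2, the ferritin genes Fth1 and Ftl1, and the iron exporter gene Slc40a1. They were chosen by name for their place in this pathway, and all 10 were found among the 20731 genes of the count table. RNA of brain tissue from 9 male C57BL/6J mice aged 8 to 10 weeks was sequenced at day 2 in 3 groups of 3 mice, named CVST, CVST+Ligation and 4-PBA. All mice had cerebral venous sinus thrombosis (CVST), a clot in the large vein along the top of the brain, made with a suture soaked in 40% ferric chloride, so that an iron salt was applied in every group. The CVST group had thrombosis alone. Mice of the other groups also had a ligation of the deep cervical lymph nodes, into which meningeal lymphatic vessels drain. The 4-PBA mice were injected intraperitoneally with 4-phenylbutyric acid, which the study used against endoplasmic reticulum stress, at 100 mg/kg. The methods place this dose 30 min before modelling, whereas the series description places it after the ligation. The methods say that control mice were given the same volume of the solvent, and they do not say whether the CVST+Ligation mice sequenced here were such controls. If they were not, the drug and the injection cannot be told apart. Mice with a subarachnoid bleed or heavy bleeding during surgery had been excluded and replaced, and washing out of the blood before tissue was taken is not described for these libraries. Sham-operated mice were not analysed here, and none of the comparisons shows an effect of thrombosis itself.

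Hemoglobin is a tetramer of alpha and beta chains, each holding a heme, and its RNA is abundant in red cell precursors and persists in young circulating red cells. Alas2 encodes the erythroid form of the enzyme that starts heme synthesis. When red cells break down in or around brain tissue, heme oxygenase opens the heme ring and releases iron, carbon monoxide and biliverdin. HO-1, from Hmox1, is induced by heme and oxidative stress, whereas HO-2, from Hmox2, is made constantly, above all in neurons. Ferritin, a shell of heavy chains from Fth1 and light chains from Ftl1, stores iron, and ferroportin, from Slc40a1, carries it out of the cell.

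A number of these RNAs carry a control element for iron. An iron-responsive element is a short hairpin to which iron regulatory proteins bind when iron is scarce, and in a 5′ untranslated region (UTR) it holds back translation. The form searched was the loop CAGTGN between 5 bases on either side that pair with each other, with an unpaired C before the first of them. It was present in the annotated 5′ UTR of 4 of the 10 genes, Alas2, Fth1, Ftl1 and Slc40a1, and in 31 of 20045 genes (0.155%) with a 5′ UTR of at least 30 bases in the GENCODE M21 annotation of GRCm38. The elements are shown because these 4 genes share them and the hemoglobin and heme oxygenase genes hold none in this form. The capitals mark the loop.
Alas2: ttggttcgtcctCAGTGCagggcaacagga
Fth1: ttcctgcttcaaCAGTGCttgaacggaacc
Ftl1: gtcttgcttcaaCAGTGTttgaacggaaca
Slc40a1: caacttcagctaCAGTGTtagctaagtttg
In GRCm38 the element of Fth1 lies at chr19:9982732-9982761 on the plus strand, that of Ftl1 at chr7:45459778-45459807 on the minus strand and that of Slc40a1 at chr1:45925464-45925493 on the minus strand. The element of Alas2 is split by an intron between chrX:150547458 and chrX:150552150 on the plus strand. The 2 ferritin elements are identical at 26 of 30 bases, and counted from the first base shown the differences from Fth1 to Ftl1 are T1G, C4T, C18T and C30A. Counts of RNA do not measure translation, so none of the values below bears on whether these elements were bound.

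The hemoglobin genes come as near-identical copies, which sets a limit on what a read can say about each of them. Hba-a1 and Hba-a2 differ at 1 of 426 coding bases, C381T from Hba-a1 to Hba-a2, and 231 of the 277 stretches of 150 bases in the coding sequence are the same in both. Hbb-bs and Hbb-bt differ at 1 of 441 coding bases, C417T, and share 267 of 292 such stretches. The 41 bases around each difference are given from the GENCODE transcripts, with the differing base in capitals. Positions are counted from the first base of the start codon.
Hba-a1: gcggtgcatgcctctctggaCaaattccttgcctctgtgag
Hba-a2: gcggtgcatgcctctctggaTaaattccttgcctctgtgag
Hbb-bs: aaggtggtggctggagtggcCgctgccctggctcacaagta
Hbb-bt: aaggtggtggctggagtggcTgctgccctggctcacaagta
These stretches lie at chr11:32284323-32284363 and chr11:32297140-32297180 on the plus strand, and at chr7:103826672-103826712 and chr7:103812663-103812703 on the minus strand. The methods name RSEM, which divides reads that match several transcripts by a statistical estimate, for the abundance values. The deposited counts are whole numbers, and whether RSEM or another program made them is not given in the sources used here. The split within each pair is therefore uncertain, and the sums over each pair are given beside the single genes.

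Upstream of the beta genes the sequences are less alike. The 250 bases before the RefSeq start in GRCm38.p6 were searched on both strands for CCACACCC, the box to which the erythroid factor KLF1 binds, and for CCAAT. CCACACCC was present before Hbb-bs and before none of the other 7 members with an entry, and it is present before 3.20% of 32851 promoters. CCAAT was present before Hba-a1, Hba-a2, Hbb-bs, Hbb-bt, Ftl1 and a start of Fth1 but not its other start, and before 33.8% of promoters. AGATAA was present before Hbb-bs and Alas2 (9.99% of promoters), and TGACNNNGC before Hbb-bt (10.2%). ATATAA was present before both alpha genes, both beta genes and the other start of Fth1 (9.10% of promoters). The 30 bases that end 3 bases after 1 CCAAT are shown in the direction of transcription, with CCACACCC and CCAAT in capitals where they read on this strand. CCAAT lies at 3 places before Hbb-bt on either strand, and the attgg just before the capitals is one of them, read on the other strand.
Hbb-bs: tagagCCACACCCtggtaagggCCAATctg
Hbb-bt: cagggtaacaccctggcattggCCAATctg
They lie at chr7:103827997-103828026 and chr7:103813991-103814020 on the minus strand. The GENCODE M21 genes begin farther upstream than the RefSeq starts. The Hbb-bs stretch lies inside the GENCODE gene (chr7:103826534-103828096), and the Hbb-bt stretch overlaps the end of its gene at chr7:103813996. A match is a description of letters, not of a factor bound in this tissue. No promoter entry was found for Hmox1 or Slc40a1.

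Counts per mouse summed to 18100739 to 25091498 (median 23358349), at which 3 counts, the limit that a count of 0 allows, correspond to 0.114 to 0.163 CPM, for counting error only. CPM here is the count scaled to a common library size after TMM normalisation. The labels name the tissue as brain, and the series description as cortex. Lists of marker genes of brain regions differed between libraries. The summed level of 7 midbrain dopamine markers was 18.02 to 19.5 CPM in the CVST group and 168 to 206 in the CVST+Ligation group. In the 4-PBA group it was 226 to 229 CPM. The make-up of this sum differed in CVST+Ligation mouse 2, where Ddc was the largest part (127.3 CPM). Ddc, Slc18a2 and En1 were higher there than in mice 1 and 3 of its group, and Th, Slc6a3, Chrna6 and Pitx3 lower. Slc6a3 had 66.25, 5.617 and 44.75 CPM in CVST+Ligation mice 1 to 3. Hypothalamic markers summed to 277 to 473 CPM in the 4-PBA mice and 2.23 to 20.9 in all others, and cerebellar markers to 1371 CPM in CVST+Ligation mouse 2 and 34.9 to 75.1 in the others. Thalamic markers summed to 60.6 to 67.7 CPM in CVST, 146 to 435 in CVST+Ligation and 313 to 598 in 4-PBA. The 435 CPM was in CVST+Ligation mouse 2, where Zic1 (137 CPM) and Slc17a6 (134 CPM) were the largest parts. In CVST+Ligation mice 1 to 3, Zic1 had 5.74, 137 and 13.45 CPM and Prkcd 26.1, 45.9 and 119 CPM. Striatal markers summed to 1010 to 1703 CPM in CVST, 181 to 491 in CVST+Ligation and 232 to 1183 in 4-PBA. Neuronal markers summed to 5828 to 6375 CPM in CVST, 4241 to 5431 in CVST+Ligation and 3641 to 4258 in 4-PBA. Choroid plexus markers summed to 99.0, 17.9 and 861 CPM in CVST+Ligation mice 1 to 3, 790 to 980 in CVST and 449 to 3138 in 4-PBA. CVST and CVST+Ligation mice did not overlap in the midbrain, thalamic, striatal and neuronal sums. The cerebellar sum set CVST+Ligation mouse 2 farthest apart and the hypothalamic sum the 4-PBA group. CVST+Ligation mouse 3 also held the cerebellar markers Gabra6 (119 counts), Fat2 (224) and Cbln3 (80). Mice other than CVST+Ligation mice 2 and 3 held 0 counts of Gabra6, 0 to 14 of Fat2 and 0 to 4 of Cbln3. In mouse 3 Pcp2 was higher too, and Car8 and Grm4 were within or near the range of those other mice. The hypothalamic sum of CVST+Ligation mouse 3 was 20.9 CPM, against 2.23 to 3.47 in the other CVST and CVST+Ligation mice. The part of these tissues in the members' values was not tested, and the tissue taken and the treatment cannot be told apart. In bulk RNA, fewer cells of a type and less RNA per cell cannot be told apart either.

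In GRCm38 (GENCODE M21) Hba-a1 lies at chr11:32283511-32284465, Hba-a2 at chr11:32296489-32297298, Hbb-bs at chr7:103826534-103828096 and Hbb-bt at chr7:103812524-103813996. Alas2 lies at chrX:150547375-150570638, Hmox1 at chr8:75093621-75100589 and Hmox2 at chr16:4726361-4766742. Fth1 lies at chr19:9980598-9985098, Ftl1 at chr7:45457944-45459884 and Slc40a1 at chr1:45908068-45926523. The counts are 1 value per gene, with no exon or transcript named.

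All 10 members passed the filter on low counts. Per coding length, in FPKM, Fth1 was the highest member in all 9 mice (4060 to 7239, mean 5807), and it ranked between place 2 and place 6 of all genes. Ftl1 was the next in all mice (505 to 907 FPKM). Hbb-bs (169 to 377), Hba-a1 (118 to 322) and Hmox2 (163 to 201) followed, and their ranges overlapped, so that their order changed from mouse to mouse. Hbb-bt (16.8 to 37.0 FPKM) and Hmox1 (8.41 to 54.6) came after these and also overlapped. Slc40a1, Hba-a2 and Alas2 had the lowest means, 5.42, 4.44 and 3.42 FPKM, with overlapping ranges, although Hba-a2 reached 20.3 FPKM in CVST+Ligation mouse 2, above Hmox1 in that mouse. Over the mice, Hmox2 varied least, with a ratio of 1.26 between the highest and the lowest CPM, while Hmox1 varied 6.33-fold and Hba-a2 11.9-fold.

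**Figure D1:**
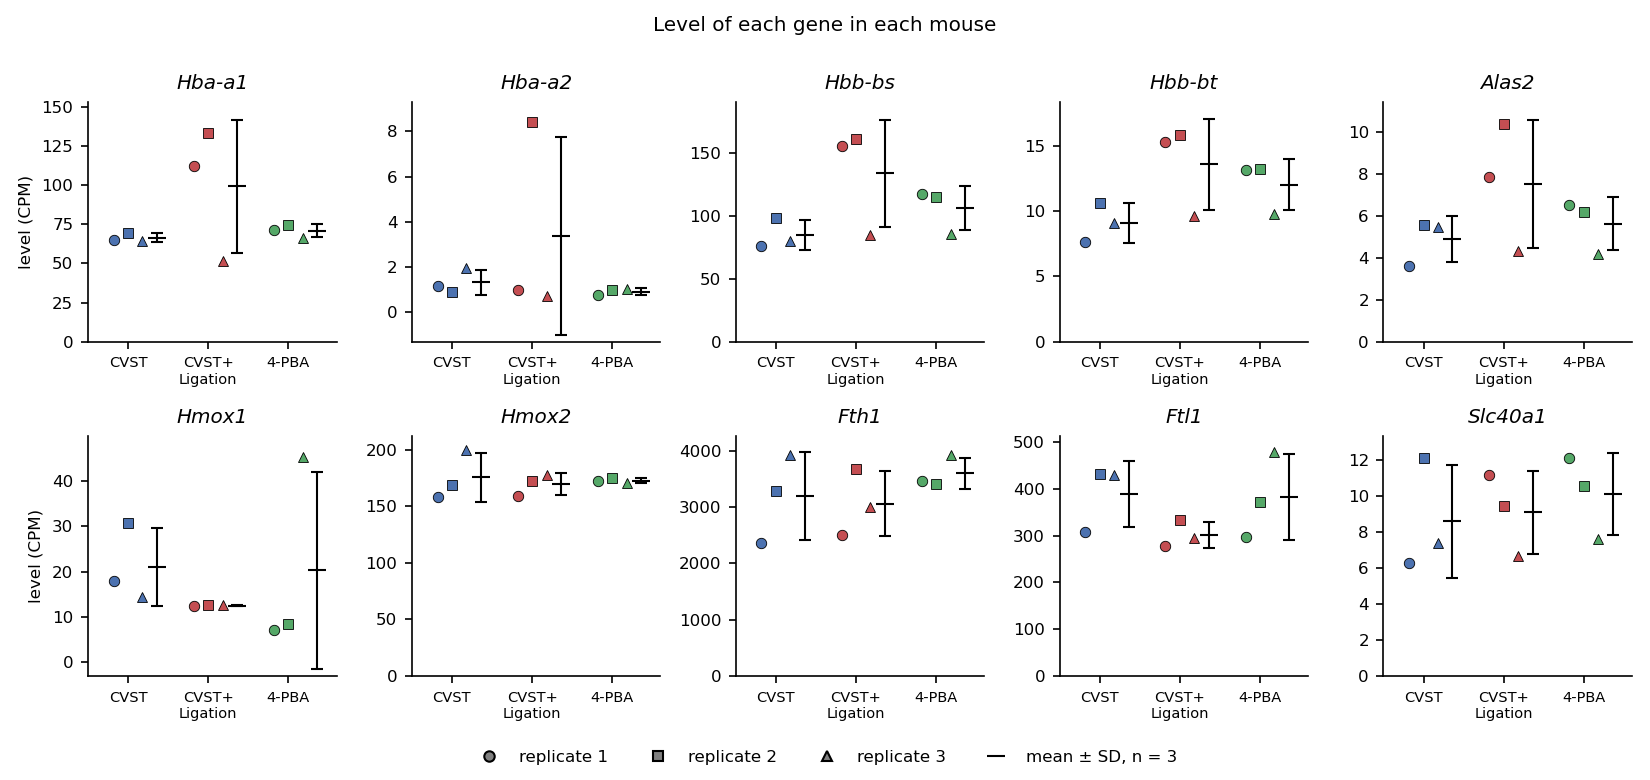
Level in CPM of each of the 10 genes in each mouse, on a linear scale of its own for each gene, with 3 mice per group and the group mean and SD as a bar. CVST+Ligation mice 1 and 2 stand above the other mice in the hemoglobin genes Hba-a1, Hbb-bs and Hbb-bt and in Alas2, Hba-a2 is high in CVST+Ligation mouse 2 (8.40 CPM) and Hmox1 in 4-PBA mouse 3 (45.3 CPM). For Hba-a2 in the CVST+Ligation group and Hmox1 in the 4-PBA group the SD exceeds the mean.

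Hba-a1, Hbb-bs and Hbb-bt were more abundant in CVST+Ligation mice 1 and 2 than in any other mouse. In CVST+Ligation mouse 3, Hbb-bs and Hbb-bt lay within the range of the CVST mice and Hba-a1 and Hba-a2 below it. Hba-a2 was highest in CVST+Ligation mouse 2, whereas CVST+Ligation mouse 1 (0.992 CPM) was below CVST mice 1 and 3 and 4-PBA mouse 3. Summed over the 4 genes, the level was 150, 180 and 156 CPM in CVST mice 1 to 3, 285, 319 and 147 CPM in CVST+Ligation mice 1 to 3, and 203, 204 and 163 CPM in 4-PBA mice 1 to 3. The group means were 162 ± 15.8, 250 ± 90.9 and 190 ± 23.4 CPM (SD, n = 3 each). The 3 groups overlapped, and the lowest and the highest sum both came from CVST+Ligation mice. CVST+Ligation mice 1 and 2, with the highest hemoglobin sums, had the lowest choroid plexus sums of the 9 mice (99.0 and 17.9 CPM). Most of that sum was Ttr, the transthyretin gene, in CVST+Ligation mouse 1 (77.2 CPM) and in the CVST mice (769 to 961 CPM), and 3 of the 8 markers were higher on average in CVST+Ligation than in CVST. The part of this tissue was not tested.

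Hbb-bs, the more abundant beta chain gene, had 76.5, 98.9 and 80.5 CPM in the CVST mice, 156, 162 and 85.2 CPM in the CVST+Ligation mice and 118, 116 and 85.9 CPM in the 4-PBA mice. Hbb-bt, the other adult beta chain gene, had 7.61, 10.6 and 9.06 CPM in CVST, 15.3, 15.8 and 9.58 CPM in CVST+Ligation and 13.1, 13.2 and 9.76 CPM in 4-PBA. Over all 9 mice the highest and the lowest level differed 2.11-fold in Hbb-bs and 2.08-fold in Hbb-bt, and the groups overlapped in both genes. Hba-a1, the alpha chain gene that received most of the counts, had 65.2, 69.6 and 64.0 CPM in CVST, 112, 133 and 51.7 CPM in CVST+Ligation and 71.1, 74.7 and 66.5 CPM in 4-PBA. Its CVST and 4-PBA mice lay within a narrow band, inside the spread of the CVST+Ligation mice.

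Hba-a2, the second alpha gene, was counted on few reads. It had 27, 20 and 36 counts in CVST, 24, 163 and 16 counts in CVST+Ligation and 14, 23 and 27 counts in 4-PBA. CVST+Ligation mouse 2 held 8.40 CPM, 4.30 times the next highest mouse, and the other 8 mice held 0.703 to 1.95 CPM. Hba-a1 in that mouse was 1.19 times the next highest. The near-identity of the pair shown above applies to this split.

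In CVST+Ligation against CVST, Hbb-bs was 1.57-fold higher (log2 fold change 0.65 ± 0.24 SE, unadjusted p = 0.0233) and Hbb-bt 1.49-fold (0.57 ± 0.25, unadjusted p = 0.0427). Both fell short after Benjamini-Hochberg adjustment in edgeR's quasi-likelihood test (adjusted p = 0.431 and 0.502). Hba-a1 was 1.49-fold higher (0.58 ± 0.28, unadjusted p = 0.0665) and Hba-a2 2.52-fold (1.34 ± 0.84, unadjusted p = 0.144), and neither passed. With the copies summed, the beta pair differed by 0.65 ± 0.24 (unadjusted p = 0.0232, adjusted p = 0.431) and the alpha pair by 0.60 ± 0.29 (unadjusted p = 0.0656, adjusted p = 0.543) in the same edgeR test. Hbb-bs and Hbb-bt were thus 2 of 10 members with an unadjusted p below 0.05, where 9.64% of the 14746 genes tested had one. No member passed at an adjusted p below 0.05 with edgeR, DESeq2 or limma, and 3 genes of all those tested (0.0203%) did with edgeR.

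These calls turned on single mice. Without CVST+Ligation mouse 3, the log2 fold change of Hbb-bs was 0.90 and that of Hba-a1 0.89 (unadjusted p = 0.000147, adjusted p = 0.147), and 5 members had an unadjusted p below 0.05. Without CVST+Ligation mouse 1, without mouse 2 of that group or without CVST mouse 3, no member had. Without CVST mouse 1, 1 member had, and this was Ftl1. In a fit of these groups alone the log2 fold change of Hbb-bt was 0.58, close to the value above, with an unadjusted p = 0.0622. The log2 fold change of Hbb-bs stayed between 0.50 and 0.90 whichever of the 6 mice was left out, whereas that of Hba-a2 changed sign without CVST+Ligation mouse 2 (-0.64).

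In 4-PBA against CVST+Ligation, the hemoglobin genes were lower on average, and no difference passed. The log2 fold change was -0.34 ± 0.24 for Hbb-bs (unadjusted p = 0.197), -0.17 ± 0.24 for Hbb-bt (unadjusted p = 0.494), -0.49 ± 0.28 for Hba-a1 (unadjusted p = 0.114) and -1.85 ± 0.86 for Hba-a2 (unadjusted p = 0.0571), with an adjusted p = 0.9998 in edgeR's test for each. The 95% intervals allowed a change of Hbb-bs between 0.544-fold and 1.15-fold. Without CVST+Ligation mouse 3, the values were -0.58 for Hbb-bs (unadjusted p = 0.0122), -0.80 for Hba-a1 (unadjusted p = 0.000324) and -2.34 for Hba-a2 (unadjusted p = 0.0147). Without CVST+Ligation mouse 2, Hba-a2 changed sign (0.13). Of the 10 members 0 had an unadjusted p below 0.05, by edgeR, DESeq2 or limma, against 3.23% of all genes tested, and 0 had groups that did not overlap, against 7.73%. At an adjusted p below 0.05 there were 0 members and 0% of all genes with edgeR.

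Between 4-PBA and CVST, Hbb-bs was 1.25-fold higher (log2 fold change 0.32 ± 0.24, unadjusted p = 0.218) and Hbb-bt 1.32-fold (0.40 ± 0.25, unadjusted p = 0.136). Hba-a1 differed by 0.09 ± 0.28 (unadjusted p = 0.743) and Hba-a2 by -0.52 ± 0.86 (unadjusted p = 0.560). Of the 10 members 0 had an unadjusted p below 0.05, by edgeR, DESeq2 or limma, against 15.4% of all genes tested, and 0 had groups that did not overlap, against 23.7%. At an adjusted p below 0.05 there were 0 members, against 0.122% of all genes with edgeR. The smallest adjusted p of a member in this comparison was 0.476, for Hbb-bt in edgeR's test. The comparisons share mice, so their values for a gene are not independent.

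**Figure D2:**
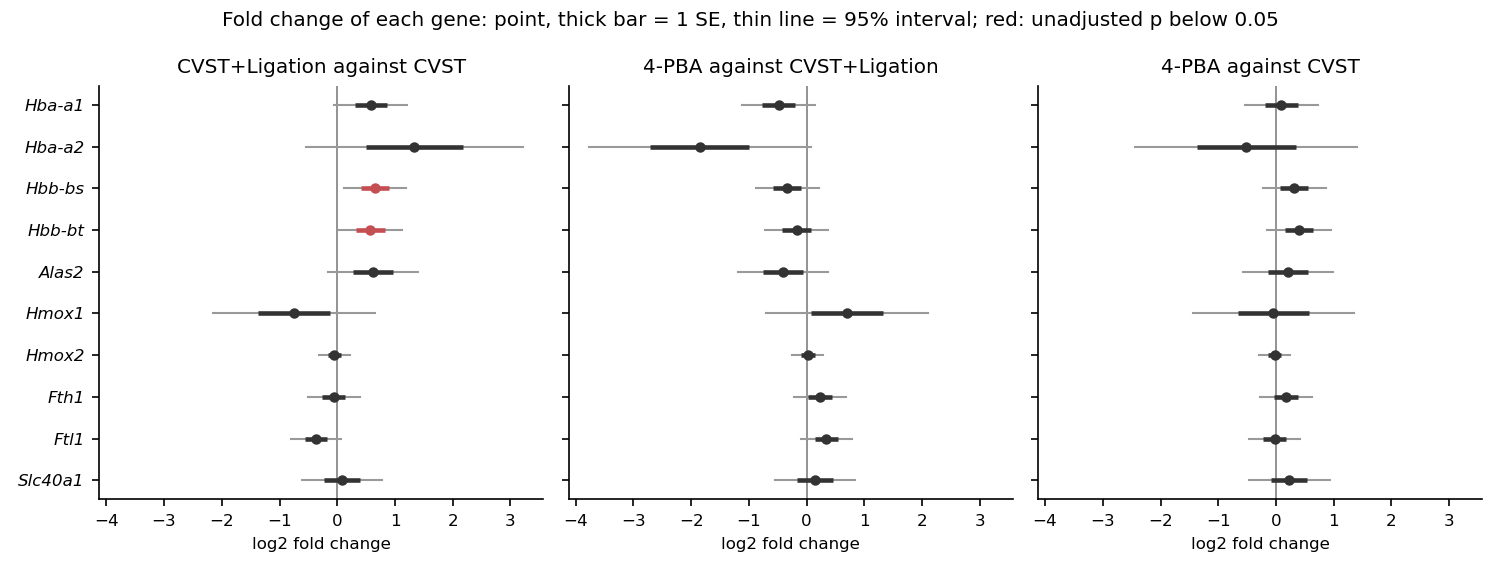
Log2 fold change of each of the 10 genes in the 3 comparisons of groups (3 mice each), on 1 shared axis, with thick bars for 1 SE and thin lines for the 95% interval. The intervals of Hbb-bs (0.65) and Hbb-bt (0.57) in CVST+Ligation against CVST lie above 0, and all other intervals include it, widest for Hba-a2 and Hmox1.

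Alas2, the erythroid heme synthesis gene, followed the beta chain genes. It had 3.61, 5.54 and 5.48 CPM in CVST, 7.85, 10.4 and 4.31 CPM in CVST+Ligation and 6.50, 6.19 and 4.19 CPM in 4-PBA. CVST+Ligation mice 1 and 2 were again the highest of the 9 mice, and the groups overlapped. The log2 fold change was 0.62 ± 0.35 in CVST+Ligation against CVST (unadjusted p = 0.107), -0.42 ± 0.35 in 4-PBA against CVST+Ligation (unadjusted p = 0.260) and 0.21 ± 0.35 in 4-PBA against CVST (unadjusted p = 0.571). Without CVST+Ligation mouse 3 the first was 0.90 (unadjusted p = 0.0192, adjusted p = 0.356). The gene overlaps Apex2 on the other strand, and reads of the 2 genes are told apart only if the counting used strand.

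Across the 9 mice, Hba-a1, Hbb-bs, Hbb-bt and Alas2 moved together, and Hba-a2 did not follow their order (with Hbb-bs, r = 0.432 and rho = -0.0167, given with no test). On log2 CPM, Hbb-bs correlated with Hbb-bt (Pearson r = 0.974, exact permutation p = 8.27e-06, adjusted over 6 pairs 4.96e-05; Spearman rho = 0.983, exact permutation p = 4.96e-05, adjusted 0.000298). How reads shared by this pair were divided is not known, and the part of that division in the correlation was not tested. Hbb-bs correlated with Alas2, which shares no such sequence (r = 0.930, exact permutation p = 0.000143, adjusted 0.000429; rho = 0.933, exact permutation p = 0.00075, adjusted 0.00225). Without CVST+Ligation mice 1 and 2, which lay farthest from the median of Hbb-bs, r was 0.837 (n = 7, exact permutation p = 0.0256), and with the group means taken out it was 0.922. Hba-a1 correlated with Hbb-bs (r = 0.900, exact permutation p = 0.000885, adjusted 0.00177; rho = 0.917, exact permutation p = 0.00131, adjusted 0.00262). Here r was 0.612 without those 2 mice (n = 7, exact permutation p = 0.126), which leaves the relation among the other mice unsettled. With the group means taken out it was 0.903.

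**Figure D3:**
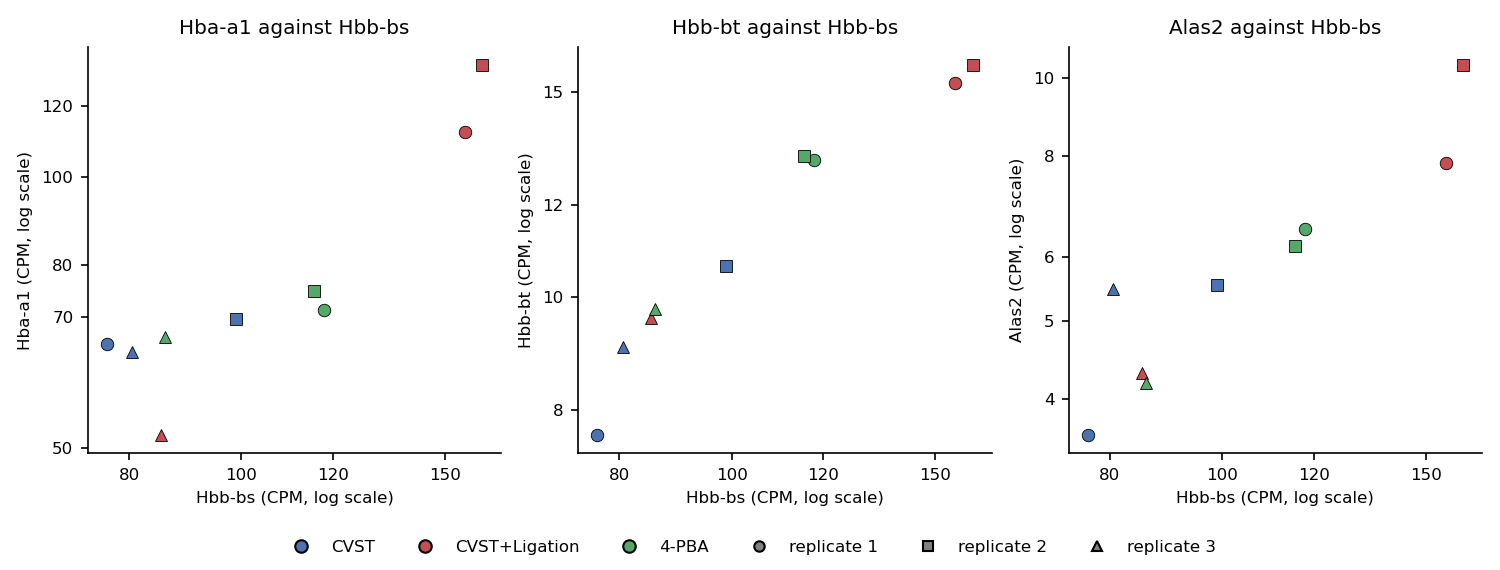
Hba-a1, Hbb-bt and Alas2 against Hbb-bs, all in CPM on log axes, with 1 point per mouse (9 mice), colours for the groups and symbols for the replicates. CVST+Ligation mice 1 and 2 stand at the upper right of each panel and the other 7 mice below, in a line for Hbb-bt (r = 0.974) and with more scatter for Alas2 (r = 0.930) and Hba-a1 (r = 0.900).

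Other red cell genes were close to absent. Of 16 erythroid markers, 15 were in the table, 2 of these (Rhag and Cldn13) were at 0 in every mouse, and none passed the filter on low counts. The largest count of any of them in a mouse was 18, for Rhd. Their summed level was 0.595 to 0.868 CPM in CVST (14 to 18 counts), 1.54 to 1.96 CPM in CVST+Ligation (35 to 47 counts) and 1.08 to 1.73 CPM in 4-PBA (20 to 41 counts). The sum in CVST+Ligation mouse 3, 1.54 CPM, was above that of all CVST mice, although its hemoglobin sum was the lowest of the 9. The part of red cells or their precursors in the hemoglobin values was not tested. Endothelial markers summed to 323 to 448 CPM in CVST, 343 to 485 CPM in CVST+Ligation and 395 to 444 CPM in 4-PBA, with the highest value in CVST+Ligation mouse 2, and their part was not tested.

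Hmox1, the inducible heme oxygenase gene, differed widely between mice of the CVST group and of the 4-PBA group and little within the CVST+Ligation group. It had 17.9, 30.7 and 14.3 CPM in CVST, 12.4, 12.6 and 12.6 CPM in CVST+Ligation, and 7.15, 8.46 and 45.3 CPM in 4-PBA. The CVST+Ligation mice were nearly equal and all lay below the CVST mice, while 4-PBA mice 1 and 2 were the lowest and 4-PBA mouse 3 the highest of the 9. Hmox1 was the only 1 of the 10 members whose CVST and CVST+Ligation groups did not overlap, against 13.8% of the genes tested. The group means were 20.98 ± 8.60, 12.5 ± 0.153 and 20.3 ± 21.6 CPM (SD, n = 3 each).

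The log2 fold change of Hmox1 was -0.74 ± 0.63 in CVST+Ligation against CVST (unadjusted p = 0.264, adjusted p = 0.715), and in a fit of these groups alone it was -0.74 (unadjusted p = 0.0354, adjusted p = 0.579). Between CVST+Ligation and 4-PBA it was 0.70 ± 0.63, higher in 4-PBA (unadjusted p = 0.291), and it was -0.68 (unadjusted p = 0.0612) without 4-PBA mouse 3. For 4-PBA against CVST it was -0.04 ± 0.62 (unadjusted p = 0.944), and without 4-PBA mouse 3 it was -1.43 (unadjusted p = 0.0019, adjusted p = 0.0910), the smallest adjusted p of any member under any alternative. The mean of the 4-PBA group therefore describes none of its mice, and the sign of its difference from the CVST+Ligation group is set by 1 library.

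The genes whose level was most like that of Hmox1 over the 9 mice were Anxa3 (r = 0.970 on log2 CPM), Serpina3n (0.969), Ms4a6d (0.969), Rrm2 (0.965) and Itgb2 (0.962). They were picked as the highest of all genes tested and are given as a description. Serpina3n, an acute-phase protease inhibitor of reactive astrocytes, had 280, 381 and 176 CPM in CVST, 155, 156 and 196 CPM in CVST+Ligation and 49.0, 104 and 970 CPM in 4-PBA. Itgb2, the beta chain of the leukocyte integrins, had 11.2 and 11.99 CPM in 4-PBA mice 1 and 2 and 30.1 CPM in 4-PBA mouse 3. Among the members, Ftl1 was closest to Hmox1 (r = 0.681).

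Markers of blood-derived cells and of astrocytes varied as well. The summed level of 8 monocyte and macrophage markers was 28.8, 45.5 and 20.8 CPM in CVST, 21.8, 58.9 and 16.0 CPM in CVST+Ligation and 21.5, 39.0 and 70.4 CPM in 4-PBA. 4-PBA mouse 3 was the highest, as in Hmox1, but CVST+Ligation mouse 2 was second, with 12.6 CPM of Hmox1. The astrocyte markers summed to 1392, 2056 and 1189 CPM in CVST, 1595, 1731 and 1306 CPM in CVST+Ligation and 1152, 1128 and 2365 CPM in 4-PBA. 4-PBA mouse 3 and CVST mouse 2 were the highest in this sum, as in Hmox1. Of the 6 markers, the intermediate filament gene Gfap made up most of the sum in these mice (1621 and 1216 CPM) and was highest in 4-PBA mouse 3, as was the water channel gene Aqp4 (68.55 CPM). Aldh1l1, a folate enzyme gene, was highest in CVST mouse 2 (229 CPM). The gap junction gene Gja1 (199.6 CPM) and the glutamate transporter gene Slc1a3 (384.9 CPM) were highest in CVST+Ligation mouse 2, and Slc1a2, another glutamate transporter gene, in CVST+Ligation mouse 1 (217.2 CPM). Platelet markers summed to 11.6 to 12.02 CPM in CVST, 9.64 to 9.89 in CVST+Ligation and 7.37 to 13.3 in 4-PBA, lower in every CVST+Ligation mouse than in every CVST mouse. Neutrophil markers summed to 8.50 to 17.03 CPM in CVST, 7.69 to 12.6 in CVST+Ligation and 9.43 to 17.5 in 4-PBA, and microglial markers to 666 to 740, 523 to 606 and 554 to 626 CPM. None of the markers of these lists was at 0 in all mice, and the part of these cells in the level of Hmox1 was not tested.

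**Figure D4:**
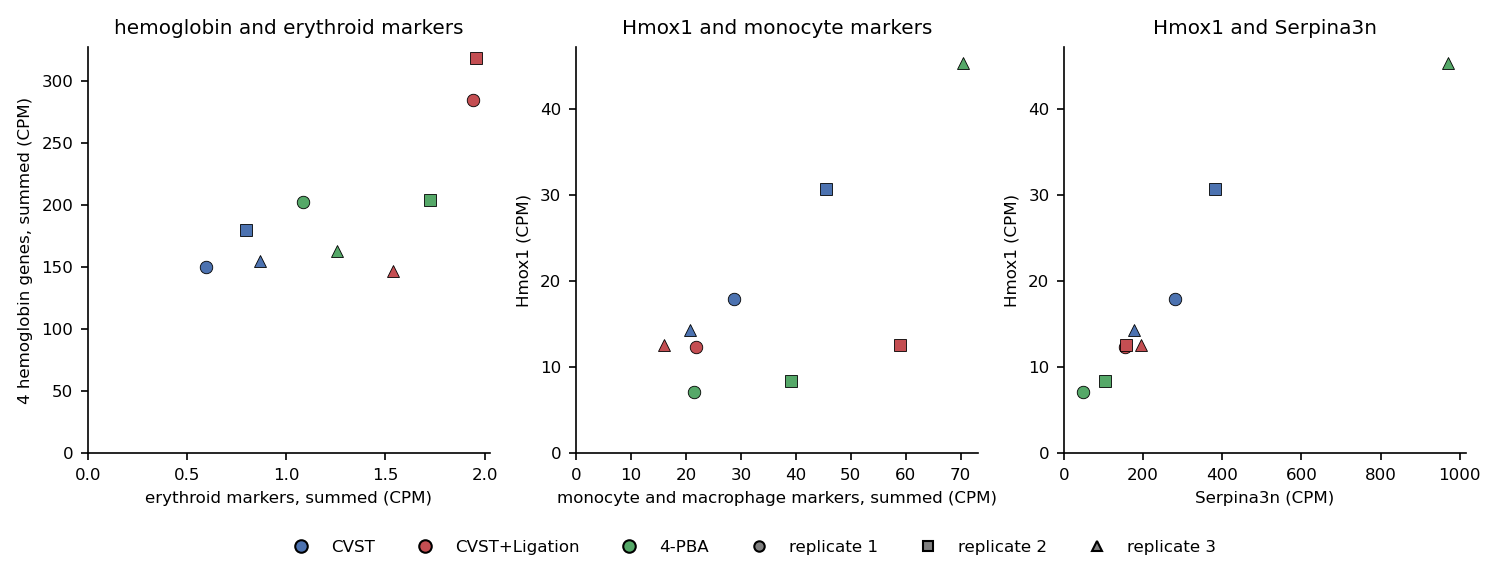
Left, the 4 hemoglobin genes summed against the erythroid markers summed; middle and right, Hmox1 against the monocyte and macrophage markers summed and against Serpina3n, all in CPM on linear axes with 1 point per mouse (9 mice). CVST+Ligation mice 1 and 2 are high on both axes on the left, and 4-PBA mouse 3 stands apart in the middle and on the right (Hmox1 45.3 CPM).

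Hmox2, the constant heme oxygenase gene, was the steadiest member. It had 158, 169 and 200 CPM in CVST, 159, 173 and 178 CPM in CVST+Ligation and 172, 175 and 171 CPM in 4-PBA. All mice lay within 1.26-fold of each other and the groups overlapped. Its log2 fold changes were -0.05 ± 0.12, 0.02 ± 0.12 and -0.03 ± 0.12 in the 3 comparisons, with unadjusted p of 0.699, 0.861 and 0.831. In CVST+Ligation against CVST the 95% interval ran from 0.804-fold to 1.16-fold. Hmox2 overlaps Cdip1 on the other strand and Gm15859 on its own strand, and reads of the latter would not be told apart by strand.

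Fth1, the ferritin heavy chain gene, had 2364, 3294 and 3931 CPM in CVST, 2513, 3674 and 3002 CPM in CVST+Ligation and 3467, 3416 and 3924 CPM in 4-PBA. Ftl1, the light chain gene, had 308, 432 and 429 CPM in CVST, 278, 333 and 295 CPM in CVST+Ligation and 297, 373 and 479 CPM in 4-PBA. The groups overlapped in both genes, and 4-PBA mouse 3, highest in Hmox1, was also highest in Ftl1. Per coding length the heavy chain RNA was 7.42 to 11.4 times the light chain RNA in the 9 mice. The gene Ftl1-ps1, a copy of Ftl1 elsewhere in the genome, was counted at 1.57 to 3.99 CPM. Ftl1 also overlaps Gm22133, annotated as a miRNA, on its own strand and Gm10252 on the other.

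In CVST+Ligation against CVST, Ftl1 was 0.775-fold of its level (log2 fold change -0.37 ± 0.20, unadjusted p = 0.0920, adjusted p = 0.580), and Fth1 differed by -0.06 ± 0.20 (unadjusted p = 0.767). Without CVST mouse 1 the value of Ftl1 was -0.52 (unadjusted p = 0.0304, adjusted p = 0.560), and with the replicate block -0.35 (unadjusted p = 0.0390, adjusted p = 0.395), both in edgeR's test. In 4-PBA against CVST+Ligation, Ftl1 differed by 0.34 ± 0.20 (unadjusted p = 0.113) and Fth1 by 0.23 ± 0.20 (unadjusted p = 0.274), and without 4-PBA mouse 1 Ftl1 differed by 0.51 (unadjusted p = 0.0281, adjusted p = 0.997). Against CVST, the 4-PBA values of Ftl1 differed by -0.03 ± 0.20 (unadjusted p = 0.899) and Fth1 by 0.17 ± 0.20 (unadjusted p = 0.413). Over the 9 mice Fth1 and Ftl1 correlated with r = 0.690 (exact permutation p = 0.041, adjusted 0.0615) and rho = 0.617 (exact permutation p = 0.0857, adjusted 0.129), and without the 2 mice farthest from the median of Fth1 with r = 0.611 (n = 7, exact permutation p = 0.148).

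Of the pairs tested that hold Hmox1, neither passed. Hbb-bs and Hmox1 had r = -0.432 (exact permutation p = 0.245, adjusted 0.294) and rho = -0.500 (exact permutation p = 0.178, adjusted 0.214), and r = -0.518 without the 2 mice farthest from the median of Hbb-bs (n = 7). Hmox1 and Fth1 had r = 0.139 (exact permutation p = 0.737, adjusted 0.737) and rho = 0.150 (exact permutation p = 0.708, adjusted 0.708), and r = -0.429 without the 2 mice farthest from the median of Hmox1 (n = 7). With the group means taken out these values were -0.293 and 0.185.

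Slc40a1, the iron exporter gene, had 6.25, 12.1 and 7.38 CPM in CVST, 11.2, 9.43 and 6.64 CPM in CVST+Ligation and 12.1, 10.6 and 7.62 CPM in 4-PBA. Each group held mice near the lowest and near the highest level, and the groups overlapped. The log2 fold changes were 0.08 ± 0.31 (unadjusted p = 0.800), 0.15 ± 0.31 (unadjusted p = 0.638) and 0.23 ± 0.31 (unadjusted p = 0.473) in CVST+Ligation against CVST, 4-PBA against CVST+Ligation and 4-PBA against CVST.

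Around the members, 54 other genes of heme and iron handling were listed, of which 53 were in the table and 50 were tested. In CVST+Ligation against CVST, 3 had an unadjusted p below 0.05 and were higher and 1 was lower, 4 of 50 beside the 9.64% of all genes. In 4-PBA against CVST+Ligation 0 of 50 had one by edgeR and by DESeq2 and 1 of 50 by limma, and in 4-PBA against CVST 3 of 50, all higher, beside 15.4% of all genes. None had an adjusted p below 0.05 in edgeR's test. The median log2 fold change of the 50 genes was -0.02, 0.03 and 0.02 in the 3 comparisons, and that of all tested genes 0.00, -0.02 and -0.01, whereas the median of the 10 members was 0.33, -0.08 and 0.13.

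The called genes described here were 2 ferroxidases, a metalloreductase and a heme exporter. Heph encodes hephaestin, a ferroxidase that works beside ferroportin. It had 3.74, 7.41 and 5.86 CPM in CVST, 8.84, 12.9 and 7.52 CPM in CVST+Ligation and 14.7, 12.2 and 12.99 CPM in 4-PBA. In both comparisons with CVST its groups did not overlap. Its log2 fold change was 0.78 ± 0.29 in CVST+Ligation against CVST (unadjusted p = 0.0238, adjusted p = 0.431) and 1.23 ± 0.29 in 4-PBA against CVST (unadjusted p = 0.00202, adjusted p = 0.101), and the first was 0.53 (unadjusted p = 0.0987) without CVST+Ligation mouse 2 and 0.55 (unadjusted p = 0.0815) without CVST mouse 1. Oligodendrocytes, which express Heph, had markers that summed to 2654 to 3489 CPM in CVST, 2656 to 5964 CPM in CVST+Ligation and 4714 to 7504 CPM in 4-PBA, and their part was not tested.

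Steap2, a metalloreductase, was higher than in CVST by 1.70 ± 0.52 in the CVST+Ligation group (unadjusted p = 0.00871, adjusted p = 0.359) and by 1.24 ± 0.51 in the 4-PBA group (unadjusted p = 0.0372, adjusted p = 0.289). Its highest level was 26.5 CPM, in CVST+Ligation mouse 2, and the other mice held 3.25 to 11.9 CPM. Without that mouse the difference between CVST+Ligation and CVST was 0.76 (unadjusted p = 0.0321). Cp, the ferroxidase ceruloplasmin, was higher in 4-PBA than in CVST by 0.83 ± 0.37 (unadjusted p = 0.0495, adjusted p = 0.323), and its groups overlapped. In this comparison Cp and Steap2 each lost the call without CVST mouse 1, without CVST mouse 3 and without 4-PBA mouse 3, Steap2 also without 4-PBA mouse 1 and Cp also without 4-PBA mouse 2. In these fits the value of Steap2 was 1.08 to 1.29 and that of Cp 0.59 to 0.80. Flvcr1, a heme exporter, was higher in CVST+Ligation than in CVST by 0.55 ± 0.23 (unadjusted p = 0.0368, adjusted p = 0.486), and by 0.32 (unadjusted p = 0.156) without CVST+Ligation mouse 2. It also lost the call without CVST mouse 2 (0.50), without CVST mouse 3 (0.47), in a fit of those groups alone (0.55) and with the replicate block (0.54, unadjusted p = 0.0598).

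The regulators of Hmox1 transcription showed no called change. Among 6 of them, Nfe2l2, which encodes the activator NRF2, was nearest, with 0.39 ± 0.18 in 4-PBA against CVST (unadjusted p = 0.0583, adjusted p = 0.344). Bach1, the heme-sensing repressor of Hmox1, differed by -0.35 ± 0.27 in 4-PBA against CVST+Ligation (unadjusted p = 0.227, adjusted p = 0.9998). Of the 6 genes for iron chaperones, ferritin turnover and iron regulatory proteins that were tested, Ireb2, which encodes an iron regulatory protein that binds the elements shown above, was nearest (0.49 ± 0.23 in CVST+Ligation against CVST, unadjusted p = 0.0625, adjusted p = 0.536).

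Of 9 other globin genes, 6 belong to the alpha and beta clusters of the red cell, and 3 of these (Hbb-bh1, Hbb-bh2 and Hba-x) were at 0 in all mice. Of the 6, Hbq1a and Hbq1b were tested, at 0.0542 to 1.15 CPM. The other 3, Cygb, Ngb and the myoglobin gene Mb, encode globins outside the red cell, and all were tested. Cygb, the cytoglobin of fibroblasts and some neurons, had 20.99, 25.9 and 30.1 CPM in CVST, 42.9, 73.3 and 40 CPM in CVST+Ligation and 53.3, 46.8 and 43.9 CPM in 4-PBA. Every mouse of the CVST+Ligation and 4-PBA groups lay above every CVST mouse. The log2 fold change was 1.02 ± 0.24 in CVST+Ligation against CVST (unadjusted p = 0.00199, adjusted p = 0.286) and 0.90 ± 0.24 in 4-PBA against CVST (unadjusted p = 0.00424, adjusted p = 0.127). Ngb, the neuronal neuroglobin, was higher by 1.63 ± 0.58 (unadjusted p = 0.0198, adjusted p = 0.419) and by 2.63 ± 0.59 (unadjusted p = 0.00141, adjusted p = 0.0855). In the first of these comparisons the value of Ngb was 1.04 (unadjusted p = 0.0930) without CVST+Ligation mouse 2, and its p also passed above 0.05 without CVST mouse 1 (1.28) or CVST mouse 2 (1.41), at folds closer to the full one. Without CVST mouse 3, which held the most Ngb of its group, the values were 2.43 (unadjusted p = 0.00232, adjusted p = 0.185) and 3.43 (unadjusted p = 0.00031, adjusted p = 0.0429) in edgeR's test. The midbrain and thalamic sums, given above, were also higher in every mouse of both groups than in CVST, and the neuronal sum was lower in every one. Ngb itself had 0.552, 0.798 and 2.28 CPM in CVST, 1.98, 6.24 and 2.945 in CVST+Ligation and 7.80, 9.09 and 5.41 in 4-PBA. The hypothalamic sum was 2.25 to 3.47 CPM in CVST and 277 to 473 CPM in 4-PBA. In CVST+Ligation mice 1 to 3 it was 2.23, 2.83 and 20.9 CPM. The part of these tissues in Cygb and Ngb was not tested.

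The genes most like Hbb-bs over the 9 mice, members left out, were Dennd10 (r = 0.947 on log2 CPM), Zfp14 (0.941), Slc35e3 (0.941), Kcnj16 (0.936) and Pfas (0.930). Set each on its own among the tested genes that are no members, Hbb-bt (0.974) came at place 1 and Alas2 (0.930) at place 5 by this measure, Hba-a1 (0.900) at place 13, Slc40a1 (0.692) at place 651 and Hba-a2 (0.432) at place 3206. With 9 mice and 14746 genes tested such values describe these libraries and say nothing of shared control.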

How the data were processed

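Per the labels, the processing used fastp, HISAT2, StringTie and RSEM with the mouse build mm10 (GRCm38), and versions, the counting program and its annotation are not given in the sources used here. The authors deposited raw counts per gene symbol and FPKM values, which they call TPM. Each FPKM equals the count over the library total and a single length per gene, a coding length for the members. Groups came from the sample titles. Counts were fitted with edgeR 4.0.16 in R 4.3.3 (TMM, filterByExpr by group, quasi-likelihood test, 1 fit of 3 groups, no covariates, Benjamini-Hochberg over 14746 genes). All p-values without another name come from this fit. Each library is a separate mouse by the methods. No pair of a group agreed within counting noise (chi-square at least 24.2 times its degrees of freedom). Correlations used exact permutation tests (scipy 1.17.1). Alternatives were edgeR's RLE factors, total counts, TMM without hemoglobin genes, DESeq2 1.42.0, other filters, 2-group fits, a replicate block, limma 3.58.1 on log2(FPKM + 1) and log2(FPKM + 0.1), summed copies, and each library left out. Scripts were tested on simulated data. Named genes were the members, up to 3 of each pathway list by p, and the 5 most like Hbb-bs and Hmox1, and single markers were named after their values were seen. The sums of all 15 marker lists are given. The values of 1 gene of the pathway lists are not reported here. The members and lists were chosen with earlier results of these data known. Sequences came from GENCODE M21 and RefSeq promoters. Plots used matplotlib 3.10.9.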

Additional observations from a re-analysis of the deposited data

How the results depend on the processing

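Over 17 alternatives for each member and comparison (16 for Hba-a2, which a stricter filter removed), 460 of 507 log2 fold changes kept their sign and their side of an unadjusted p of 0.05, 9 lost the call, 12 gained it and 26 changed sign, and the cause of these changes was not tested. The number of members with an unadjusted p below 0.05 was between 0 and 5 in CVST+Ligation against CVST, 0 and 3 in 4-PBA against CVST+Ligation and 0 and 1 in 4-PBA against CVST with each library left out in turn, and stayed at 2 to 3, 0 and 0 under the other alternatives. Of the 50 pathway genes, the main test called 0 in 4-PBA against CVST+Ligation. It was 1 with all genes of at least 1 count, 1 in the fit of only the groups compared, 1 with limma on log2(FPKM + 1), 1 with limma on log2(FPKM + 0.1), 2 with the replicate block, and 0 to 6 with a library left out. The highest came without CVST+Ligation mouse 2. In 4-PBA against CVST the count of 3 became 5 with total counts, 5 with DESeq2, 5 in the fit of those groups alone, 5 with the replicate block, and 5 with either limma setting. With a library left out it was 2 to 4. The correlation of same-numbered mice around their group means ran from -0.052 to 0.313, and that of unlike-numbered mice from -0.333 to 0.136. With 3 mice a group these values do not settle whether the replicate numbers pair the mice. The block is therefore given only as an alternative.

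In 4-PBA against CVST, values near 0 changed sign under some alternatives. With total counts in place of TMM, the log2 fold change was 0.036 for Hmox1, 0.047 for Hmox2 and 0.049 for Ftl1. With limma on log2(FPKM + 1) it was 0.052 for Hmox2 and 0.036 for Ftl1, and on log2(FPKM + 0.1) it was 0.052 for Hmox2 and 0.036 for Ftl1. Summed with Hba-a1, Hba-a2 differed by 0.084. Without the 2 mice farthest from the median, r was 0.612 for Hba-a1 with Hbb-bs and -0.429 for Hmox1 with Fth1.

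With each library left out, these log2 fold changes changed sign at least once. In CVST+Ligation against CVST, Hba-a2 ran from -0.64 to 1.82, Hmox2 from -0.12 to 0.035, Fth1 from -0.24 to 0.094, Slc40a1 from -0.11 to 0.42 and Cp from -0.062 to 0.64. In 4-PBA against CVST+Ligation, Hba-a2 ran from -2.34 to 0.13, Hmox1 from -0.68 to 1.12, Hmox2 from -0.0073 to 0.055, Slc40a1 from -0.032 to 0.34, Flvcr1 from -0.30 to 0.043, Steap2 from -0.82 to 0.49 and Cygb from -0.28 to 0.22. For 4-PBA against CVST, Hmox1 ran from -1.43 to 0.38, Hmox2 from -0.087 to 0.060 and Ftl1 from -0.22 to 0.14. With 3 mice a group, an exact permutation test of 1 gene could not go below 0.1. Hba-a2 and Alas2 had 14 to 201 counts per mouse, Slc40a1 136 to 273, Hbb-bt 167 to 370 and Hmox1 132 to 1188. Whether depth limited any member was not tested.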
